A study of Mus musculus with 6 samples.

Results

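The subunits and inhibitors of the transcription factor NF-κB were measured in the stem cell region and the transit amplifying region of the mouse incisor. The 10 genes were chosen by name: Nfkb1, Nfkb2, Rela, Relb and Rel for the subunits, Nfkbia, Nfkbib and Nfkbie for the classical inhibitors, and Nfkbiz and Tnfaip3 for 2 further regulators. All 10 were among the 23718 genes listed, and all 10 passed the filter on low values. Mesenchymal stem cell (MSC) samples came from Gli1-CreER;tdT mice and transit amplifying cell (TAC) samples from Axin2-CreER;tdT mice, with 3 samples in each group. Each mouse was 1 month old, of the strain C57BL/6 per the labels (a mixed background by the study's methods), and was given tamoxifen 1 day before collection. Both groups therefore carried a tamoxifen-inducible Cre (CreERT2 by the study's methods) and the red reporter tdT (tdTomato at the Rosa26 locus), and no sample without them was analysed here. The Gli1 and Axin2 drivers mark any cell that uses those genes. The cells were cut from frozen sections by laser, so neighbouring cells can be part of a sample.

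NF-κB is a dimer of Rel family proteins. In resting cells the inhibitors, called IκB, hold most dimers in the cytoplasm. Signals from receptors of the TNF, interleukin-1 and Toll-like families activate the IκB kinase, the inhibitors are degraded, and the dimer enters the nucleus. Several of the genes it switches on encode its own subunits and inhibitors, so the pathway feeds back on itself. In teeth and bone the pathway is best known from inflammation and from the formation of bone-resorbing cells.

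The promoters are shown because that feedback runs through short κB sites in the DNA before the start of such genes. RefSeq windows of 300 bases (250 before a start to 50 after it, build GRCm38.p6) were given for 7 of the 10 genes, 10 windows in all, and none was given for Nfkb1, Relb and Nfkbiz. The κB consensus, a motif of 10 bases, was searched on both strands, and overlapping matches were counted once. At least 1 match was found in 4.51% of the 32851 windows of all genes, and at least 2 were found in 0.167%. A match was present for 5 of the 7 genes. The stretches below run 5′ to 3′ in the direction of the gene, leave out bases inside annotated exons, and have the matched bases in capitals. They come from chr12:55492648-55492797 (minus strand) for Nfkbia, chr10:19015411-19015547 (minus strand) for Tnfaip3, chr11:23770971-23771119 (minus strand) for Rel and chr17:45555550-45555699 (plus strand) for Nfkbie.
Nfkbia: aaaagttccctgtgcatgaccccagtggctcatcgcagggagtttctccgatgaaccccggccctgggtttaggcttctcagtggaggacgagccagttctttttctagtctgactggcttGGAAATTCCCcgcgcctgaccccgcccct
Tnfaip3: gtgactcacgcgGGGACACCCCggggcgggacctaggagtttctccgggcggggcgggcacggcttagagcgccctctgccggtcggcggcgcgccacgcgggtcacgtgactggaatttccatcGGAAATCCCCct
Rel: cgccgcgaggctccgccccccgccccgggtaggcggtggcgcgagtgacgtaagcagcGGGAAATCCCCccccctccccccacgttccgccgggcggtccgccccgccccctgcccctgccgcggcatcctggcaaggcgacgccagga
Nfkbie: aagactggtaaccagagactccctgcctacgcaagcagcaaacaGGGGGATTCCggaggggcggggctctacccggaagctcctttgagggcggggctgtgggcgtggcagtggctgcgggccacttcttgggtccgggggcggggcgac

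Nfkbia had 1 match, beginning 29 bases before the start. The Tnfaip3 window shown had 2, at 125 and 12 bases before its start, and the window of a second Tnfaip3 start (chr10:19011914-19012213) had none. Rel had 1 stretch of overlapping matches from 92 bases before the start, and Nfkbie had 1 match at 106 bases before it. The first Nfkb2 window, chr19:46304487-46304786, held GGGAATTCCC at 39 and GGGGCTTTCC at 11 bases before its start, both inside annotated exon sequence. The windows of 2 later Nfkb2 starts held matches as well. For contrast, the windows of Rela and Nfkbib held no match, and their bases outside exons are given next, from chr19:5637391-5637482 (plus strand) and chr7:28766645-28766734 (minus strand).
Rela: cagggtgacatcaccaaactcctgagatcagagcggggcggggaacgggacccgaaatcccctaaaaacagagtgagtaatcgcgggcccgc
Nfkbib: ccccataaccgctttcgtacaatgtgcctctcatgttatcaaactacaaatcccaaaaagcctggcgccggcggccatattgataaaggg

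These matches describe the letters in the windows and do not show binding.

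Replicate 3 of each group stood apart from replicates 1 and 2. MSC and TAC replicates 1 and 2 held between 20203159 and 25567244 estimated reads, whereas MSC replicate 3 held 59793645 and TAC replicate 3 held 108156380. Between 8.28% and 9.07% of the reads were mitochondrial rRNA in replicates 1 and 2, against 0.236% (MSC) and 0.112% (TAC) in replicate 3. No read was found for 6.89% to 8.36% of the listed genes in replicates 1 and 2, for 43.1% in MSC replicate 3 and for 28.3% in TAC replicate 3. Results are therefore also given within each of these 2 sets of libraries. Markers of dental mesenchyme had a summed value of 2771 to 11099 in MSC and 8908 to 12768 in TAC, sums in which Col1a1 weighs most. Single markers were low in MSC replicate 3, where Twist1 had 4.73, Lhx6 had 4.76 and Barx1 had no read. Dental epithelium markers were present too, at 299.7 to 3658 in MSC and 2149 to 3338 in TAC, sums in which enamel genes weigh most. Over the 6 libraries all 8 of them had a fold change above 0 (median 1.01), and 4 (Krt14, Krt5, Epcam and Cdh1) were higher in TAC without overlap, against 12.3% of all genes. The median of the 8 was 0.60 in replicates 1 and 2, where Amelx (-0.21) and Enam (-0.07) were below 0, and 2.80 in replicate 3. The part of these epithelium markers in the results was not tested. Of the drivers, Gli1 had values of 256, 245 and 422 in MSC and 153, 141 and 396 in TAC, and Axin2 had 58.3, 48.0 and 12.01 in MSC and 56.8, 63.9 and 34.05 in TAC, so both overlapped over the 6 libraries. Within each replicate number Gli1 was higher in MSC and, in replicates 2 and 3, Axin2 was higher in TAC. The proliferation gene Cdk1 had 4.02, 3.51 and 3.92 in MSC and 25.7, 29.2 and 30.9 in TAC (limma adjusted p = 0.0390), Top2a was higher in TAC without overlap, and Mki67 was higher in TAC within each replicate number.

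The comparison of MSC with TAC asked whether the NF-κB machinery differs between the 2 regions. The transcripts of all 5 subunits and of Nfkbiz and Tnfaip3 were higher in every MSC library than in any TAC library, by 1.49-fold for Nfkb1 to 4.16-fold for Tnfaip3 in the ratio of group means. The 3 classical inhibitors overlapped between the groups. No gene of the 10 passed an adjusted p of 0.05 over the 15391 genes tested with limma, where 0.422% of all genes passed in either direction. At an unadjusted p under 0.05, 3 of the 10 (Nfkbiz, Relb and Tnfaip3) were higher in MSC, against 6.43% of all genes. The groups did not overlap, with MSC higher, for 7 of the 10, against 12.2% of all genes. The fold change was below 0 (higher in MSC) for 9 of the 10, against 48.5% of all genes. The median log2 fold change, TAC minus MSC, was -0.91 over the 10 genes and 0.03 over all genes tested. With the replicate number as a block, limma again passed none of the 10 after adjustment, against 1.49% of all genes, and at an unadjusted p under 0.05 it passed Nfkb1, Relb and Nfkbiz, against 10.9%. In these bulk samples, fewer cells of a type and less RNA per cell cannot be told apart.

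**Figure D1:**
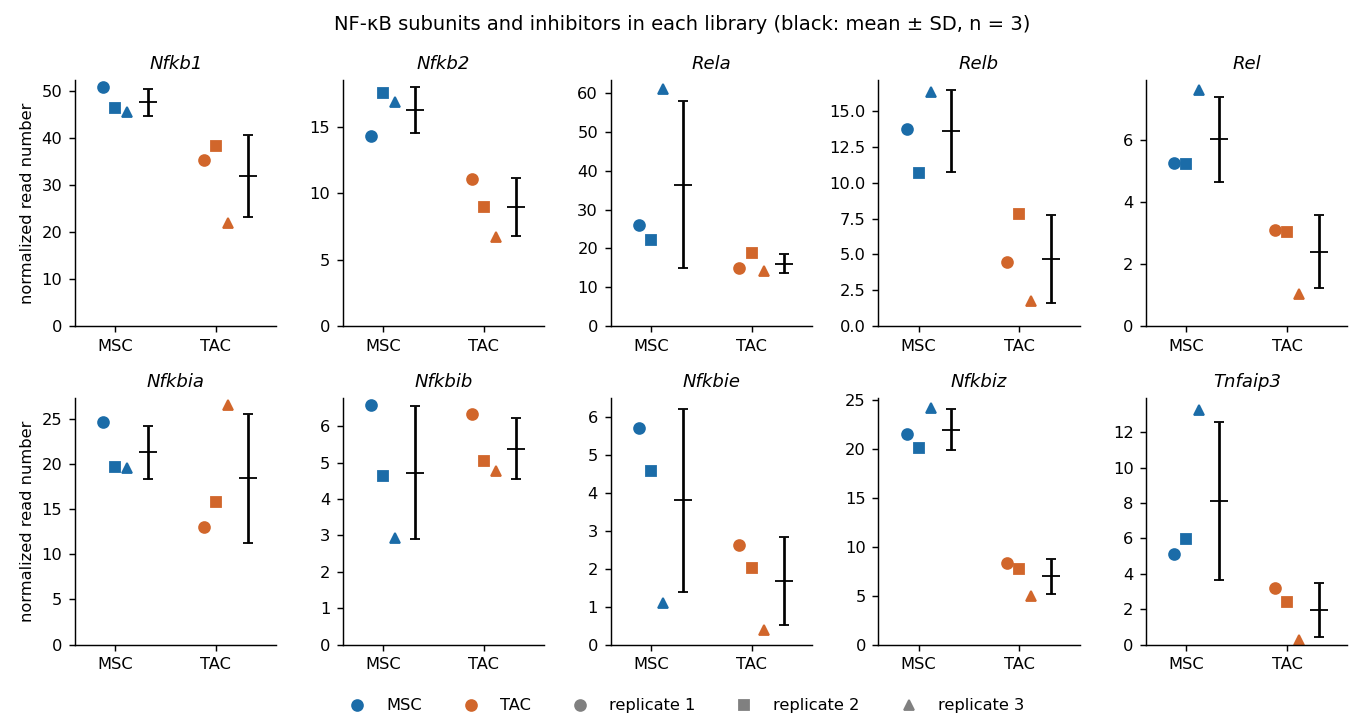
Deposited values (number of reads plus 1, divided by a library factor) of the 10 NF-κB genes in the 3 MSC and 3 TAC libraries, 1 panel a gene, with 1 point a library (its shape giving the replicate) and black marks for the mean ± SD. The MSC points sit above the TAC points for the 5 subunits, Nfkbiz and Tnfaip3, and the groups overlap for Nfkbia, Nfkbib and Nfkbie.

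Within the sets the direction was shared by most of the genes. In replicates 1 and 2 alone, 8 of the 10 passed an adjusted p of 0.05 in limma with MSC higher, against 24.2% of all genes, and 9 did not overlap, against 39.5%. That test rests on 2 libraries a group. The median log2 fold change was -0.62 in those libraries, where it was -0.05 over all genes. In replicate 3, with 1 library a group and no test, 8 of the 10 were higher in MSC, against 47.7% of all genes, and the median was -1.62, with 0.04 over all genes. Taking libraries of the same number together, MSC lay above TAC in replicates 1, 2 and 3 for 8 of the 10, against 26.4% of all genes.

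**Figure D2:**
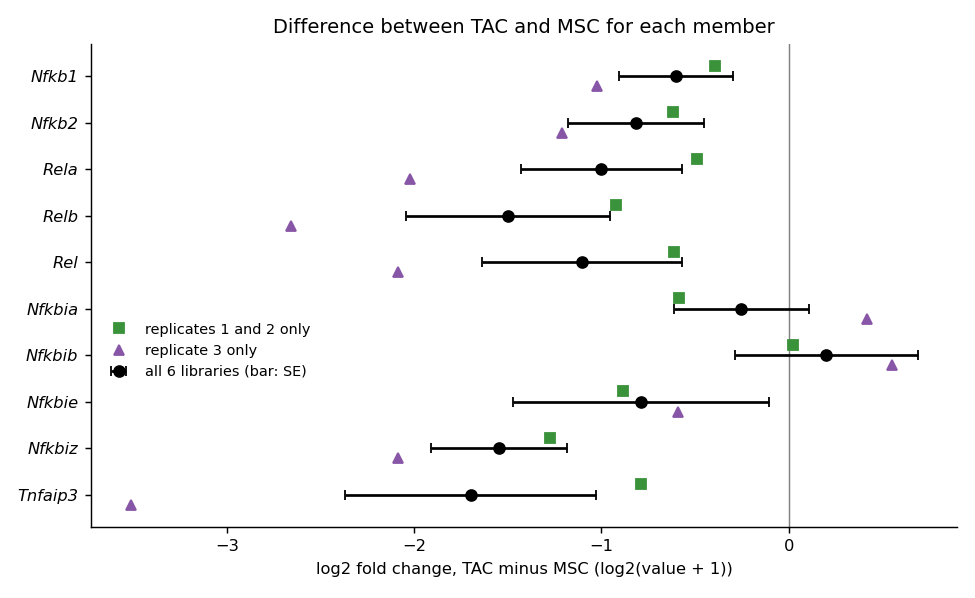
Log2 fold changes (TAC minus MSC) of the 10 genes in all 6 libraries, with the standard error from limma as bars, and in replicates 1 and 2 and in replicate 3 taken alone. Points left of 0 are higher in MSC, and the replicate 3 points lie farther from 0 than those of replicates 1 and 2 for the 5 subunits, Nfkbiz and Tnfaip3.

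Of the subunits, Rela encodes p65, the usual activating partner, and Nfkb1 encodes p105, the precursor of p50. Rela (chr19:5637483-5648131, mm10) had values of 26.1, 22.1 and 61.2 in MSC and 14.998, 18.8 and 14.3 in TAC. Every MSC library was above every TAC library, and MSC replicate 3 stood far above the other two. The means were 36.5 ± 21.5 and 16.04 ± 2.43 (SD, n = 3 each), a log2 fold change of -1.001 (SE 0.43, limma adjusted p = 0.427). The ratio of means was 2.27, and 1.43 without replicate 3 of either group. The log2 fold change without MSC replicate 3 alone was -0.56. Nfkb1 (chr3:135584655-135691548) had values of 51.04, 46.4 and 45.5 in MSC and 35.5, 38.3 and 21.9 in TAC. The MSC libraries were close together and TAC replicate 3 was the lowest of all. TAC minus MSC was -0.60 on the log2 scale (SE 0.30), and -0.36 without TAC replicate 3. Its limma adjusted p was 0.496, and 0.228 with the replicate block, in a range of 0.00659 to 0.9998 over the alternatives tried. An unnamed transcript model on the same strand, Gm43430, overlaps Nfkb1.

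Nfkb2 encodes p100, the precursor of p52, and Relb encodes its partner in the alternative branch of the pathway. Nfkb2 (chr19:46304737-46312091) had values of 14.3, 17.6 and 16.9 in MSC and 11.1, 8.99 and 6.73 in TAC. The groups were apart in both library sets, with a log2 fold change of -0.82 (SE 0.36, limma adjusted p = 0.444). Psd and a long noncoding RNA overlap Nfkb2 on the other strand, and whether the counting used strand was not given in the sources used here. Relb (chr7:19606217-19629439) had values of 13.8, 10.7 and 16.4 in MSC and 4.47, 7.86 and 1.76 in TAC. All TAC values were below the lowest MSC value, and the difference was -1.50 in log2 (SE 0.55, limma adjusted p = 0.343). Replicates 1 and 2 gave -0.92 and replicate 3 gave -2.66. Both genes of the alternative branch were thus lower in each TAC library than in any MSC library, without passing the adjusted threshold.

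Rel encodes c-Rel, the subunit best known from lymphocytes. Rel (chr11:23736847-23770971) had values of 5.25, 5.22 and 7.62 in MSC and 3.11, 3.05 and 1.03 in TAC. The groups did not overlap, and TAC lay below MSC by a log2 fold change of -1.10 (SE 0.53, limma adjusted p = 0.480). Lymphocyte markers, of which 8 of 9 were listed and 3 were tested, had summed values of 7.33 to 32.6 in MSC and 1.56 to 4.81 in TAC. No listed lymphocyte gene lacked reads in every library, and their part in the Rel result was not tested.

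The classical inhibitors bind NF-κB dimers and mask the signals that carry them into the nucleus. Nfkbia (chr12:55489410-55492648), which encodes IκBα, had values of 24.7, 19.6 and 19.6 in MSC and 12.98, 15.8 and 26.5 in TAC. TAC replicate 3 was the highest of the 6, so the groups overlapped, whereas in replicates 1 and 2 both MSC libraries were above both TAC libraries. Over all 6 libraries the difference was -0.25 in log2 (SE 0.36, limma adjusted p = 0.856). In replicates 1 and 2 it was -0.59, with a limma adjusted p of 0.0147 in a range of 0.0147 to 0.9998 over the alternatives. In replicate 3 it was 0.42. Leaving out MSC replicate 1 or TAC replicate 1 brought it to -0.15 and -0.05, and leaving out TAC replicate 3 to -0.54. The direction for Nfkbia thus differed between the library sets.

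Nfkbib (chr7:28758251-28767513), which encodes IκBβ, had values of 6.58, 4.64 and 2.94 in MSC and 6.33, 5.04 and 4.77 in TAC. The groups overlapped in both the full set and replicates 1 and 2, with a log2 fold change of 0.20 (SE 0.49, limma adjusted p = 0.928). It was -0.04 without MSC replicate 3, 0.43 without MSC replicate 1 and 0.10 without TAC replicate 1. Sirt2 and Ccer2 overlap Nfkbib on the other strand. Nfkbie (chr17:45555716-45563170), which encodes IκBε, had values of 5.70, 4.58 and 1.10 in MSC and 2.63, 2.01 and 0.394 in TAC. Replicate 3 was lowest in both groups, and the groups overlapped. Within each replicate number MSC was higher, by 2.17-, 2.27- and 2.79-fold. The log2 fold change of Nfkbie was -0.79 (SE 0.68). Its limma adjusted p was 0.710, and 0.291 with the replicate block, in a range of 0.0179 to 0.9998 over the alternatives. Single libraries moved the fold change of Nfkbie, to -0.46 without MSC replicate 1, -1.30 without MSC replicate 3 and -0.37 without TAC replicate 3.

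Nfkbiz encodes IκBζ, an atypical inhibitor that acts in the nucleus and there helps to switch on a subset of NF-κB targets. It had the lowest p of the 10. Nfkbiz (chr16:55811375-55838900) had values of 21.5, 20.1 and 24.2 in MSC and 8.30, 7.74 and 4.93 in TAC. The 6 libraries formed 2 narrow groups with a wide gap, and the means were 21.9 ± 2.10 and 6.99 ± 1.805 (SD, n = 3 each). MSC was 3.14-fold higher, a log2 fold change of -1.55 (SE 0.36, limma adjusted p = 0.157), which ranked 335 among all genes by p. Replicates 1 and 2 gave -1.27 and replicate 3 gave -2.09. The limma adjusted p was 0.0928 with the replicate block, 0.0190 with the library set as a batch term and 0.000165 in replicates 1 and 2 alone. Over all alternatives it ran up to 0.9998, with replicates 1 and 2 of each group averaged.

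Tnfaip3 encodes A20, a ubiquitin-editing enzyme that shuts off signalling upstream of the IκB kinase. Tnfaip3 (chr10:19000910-19015658) had values of 5.12, 6.00 and 13.3 in MSC and 3.22, 2.40 and 0.2502 in TAC. The groups did not overlap, but replicate 3 held both the highest and the lowest value. TAC minus MSC was -1.70 in log2 (SE 0.67, limma adjusted p = 0.383). MSC was 1.98-fold higher in replicates 1 and 2 and 53.1-fold higher in replicate 3, where the TAC value rests on 65 estimated reads. Across the 10 genes the estimated reads in a library ran from 65 to 9187.

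Levels can be set side by side between the genes only after division by transcript length, here the length covered by exons in GENCODE M21. Per kilobase, Nfkbia and Rela led, with 13.2 ± 1.81 and 11.9 ± 6.995 in MSC and 11.5 ± 4.45 and 5.22 ± 0.792 in TAC (mean ± SD, n = 3). By the mean level in MSC, Nfkbiz (4.37), Nfkb1 (3.95), Nfkb2 (3.55), Relb (3.51) and Nfkbib (2.18) followed, and Nfkbie (1.25), Tnfaip3 (1.13) and Rel (0.808) were lowest. In TAC the order was Nfkb1 (2.65), Nfkbib (2.48), Nfkb2 (1.95), Nfkbiz (1.39) and Relb (1.21), and then Nfkbie (0.551), Rel (0.321) and Tnfaip3 (0.271). Neighbours in each order overlapped in range over the 3 libraries, except Rela above the next gene in both groups and Nfkbia above Rela in TAC. The exon length of each gene counts every annotated isoform, which can lower its level on this scale, so the order depends on the annotation. That length was greatest for Nfkb1, at 12.06 kilobases.

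**Figure D3:**
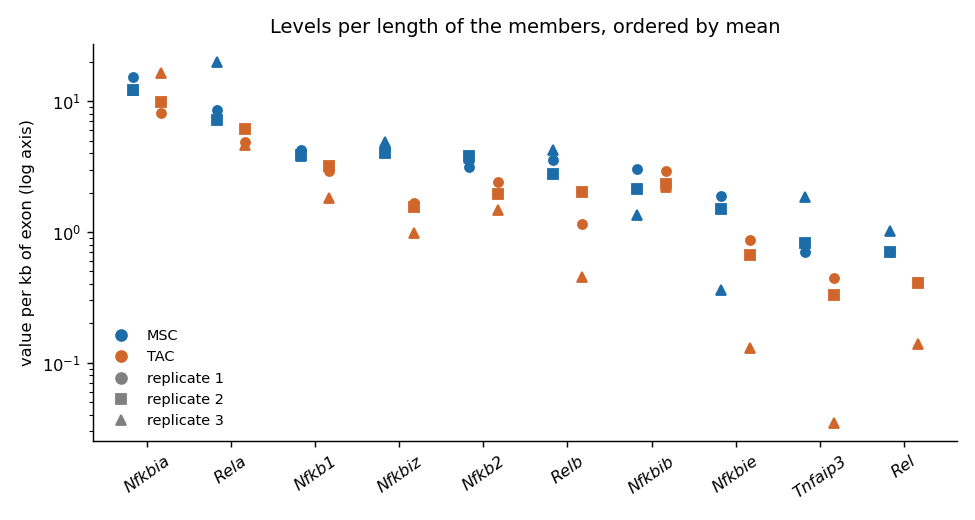
Value per kilobase of exon of the 10 genes in each library, on a log axis, with MSC and TAC libraries in 2 colours and the genes ordered by the mean over all 6 libraries. Nfkbia and Rela lie at the top in both groups, and Nfkbie, Tnfaip3 and Rel at the bottom.

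Of the subunit level per kilobase, which depends on the same exon lengths, Rela made up 39.2% to 61.1% in the 6 libraries and Rel made up 1.62% to 3.81%. Nfkb1 took 11.6% to 24.9%, Nfkb2 11.3% to 20.9% and Relb 5.31% to 17.7%. The 5 subunits summed to 20.1, 18.3 and 32.6 per kilobase in MSC and 11.8, 13.7 and 8.53 in TAC, so the groups did not overlap. The 3 classical inhibitors summed to 20.2, 15.8 and 13.9 in MSC and 11.8, 12.8 and 18.8 in TAC, with overlap. Inhibitor over subunit was 1.01, 0.864 and 0.426 in MSC and 1.00, 0.933 and 2.21 in TAC. In replicates 1 and 2 this ratio overlapped between the groups, and the low and the high value both came from replicate 3.

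The profiles of the genes across libraries are given as a description, since the 6 libraries share the 2 sets and the grouping. Among the 7 genes whose groups did not overlap, which share that difference by choice, Pearson r of log2(value + 1) over 6 libraries was 0.60 to 0.99 in the 21 pairs, with a median of 0.92. Nfkbia had r of -0.21 to 0.14 with those 7, but 0.64 to 0.99 over the 4 libraries of replicates 1 and 2. For Nfkbie these ranges were 0.00098 to 0.78 and 0.77 to 0.98. For Nfkbib they were -0.72 to -0.03 and -0.15 to 0.03. The genes most like Nfkb1, of 7857 with a mean of at least 10, were Znfx1 (r = 0.995), Ccdc80 (r = 0.995) and Ccdc57 (r = 0.991), and 149 genes reached at least 0.95. Those most like Nfkbia were Pagr1a (r = 0.979), Taf8 (r = 0.966) and Phf12 (r = 0.957), and 5 genes reached that level.

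The rest of the pathway was read from 7 lists by role, holding 84 genes, of which 75 were listed and 63 tested. None passed an adjusted p of 0.05 in limma. At an unadjusted p under 0.05, 9 of the 63 were higher in MSC, against 6.43% of all genes, and 0 higher in TAC. With the replicate block 14 were higher in MSC, against 10.9% of all genes, and 1 (Cd83) higher in TAC, against 9.43%. The groups did not overlap for 16 with MSC higher and 4 with TAC higher, where 12.2% and 12.3% of all genes did so. The median log2 fold change was -0.20. Of the 63, 6 had a mean below 1 in 1 group. Without them 7 of 57 were higher in MSC at an unadjusted p under 0.05, 12 did not overlap with MSC higher and 4 with TAC higher, and the median was -0.10.

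Of the ligands, 5 of 10 were listed and 1 was tested. Tnfsf12, which encodes the ligand TWEAK, had values of 14.6, 9.46 and 19.01 in MSC and 5.24, 5.16 and 2.29 in TAC. The difference was -1.56 in log2 (SE 0.49, limma adjusted p = 0.274). Of 11 receptors tested, 1 was higher in MSC at an unadjusted p under 0.05, a share near the 6.43% of all genes. This was Il1r1, the signalling receptor for interleukin-1, at 23.98, 22.8 and 49.3 in MSC and 10.8, 10.8 and 7.80 in TAC (log2 fold change -1.54, limma adjusted p = 0.188). The groups did not overlap for 2 of the 11 with MSC higher and 2 with TAC higher, where 12.2% and 12.3% of all genes did so. Tnfrsf1b had the same direction as Il1r1 without overlap (-1.30). Its lowest MSC value was 1.83 and its highest TAC value 1.76, and MSC replicate 3 had 15.3. Il1rap, a co-receptor, and Tlr3, a sensor of double-stranded RNA, lay higher in TAC without overlap (0.73 and 0.67). For Tlr3 the highest MSC value was 1.785 and the lowest TAC value 1.798. Its fold change was 0.10 in replicates 1 and 2, and MSC replicate 3 had 0.020. The median over the receptors was -0.07.

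Adaptors carry the signal from the receptors to the kinases that mark the inhibitors for degradation. Beside the counts in these lists stand the shares of all genes with MSC higher, which were 12.2% for groups without overlap, 6.43% at an unadjusted p under 0.05 and 10.9% at that p with the replicate block. Of 13 adaptors and ubiquitin ligases tested, none passed at an unadjusted p under 0.05, and the median log2 fold change was 0.14. Rnf31, the catalytic part of the linear ubiquitin ligase, was the single one without overlap (-0.95), and it passed at an unadjusted p under 0.05 with the replicate block. Of 10 kinases none passed either, with a median of 0.06. The catalytic subunits of the IκB kinase, Ikbkb (-0.59) and Chuk (-0.48), were the 2 without overlap, with MSC higher, and Ikbkb passed at an unadjusted p under 0.05 with the replicate block. Of 8 deubiquitinases and other restraints, Tnip2, a binding partner of A20, was higher in MSC at an unadjusted p under 0.05 (log2 fold change -1.23, limma adjusted p = 0.343), and Cyld had no overlap (-0.44). The median over that list was -0.04. The other IκB-like genes, Bcl3 and Nfkbid, overlapped between the groups.

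Of 28 genes known as NF-κB targets, 24 were listed and 18 tested. At an unadjusted p under 0.05, 6 of the 18 were higher in MSC (Vcam1, Mmp9, Traf1, Bcl2l1, Birc3 and Ccl5), against 6.43% of all genes. The groups did not overlap for 8 with MSC higher and 2 with TAC higher, where 12.2% and 12.3% of all genes did so. The median log2 fold change was -0.99, with -0.78 in replicates 1 and 2 and -1.26 in replicate 3. Ccl5, Ccl2, Traf1, Il15 and Plau had a mean below 1 in TAC and passed the filter on low values through their MSC values, so they give no support to a difference. Among the other 13 targets, 4 were higher in MSC at an unadjusted p under 0.05, the groups did not overlap for 4 with MSC higher and 2 with TAC higher, and the median was -0.71. With the replicate block 6 of these 13 were higher in MSC at an unadjusted p under 0.05, against 10.9% of all genes, and 1 was higher in TAC, against 9.43%. Vcam1, an adhesion molecule for leukocytes, had values of 18.4, 14.7 and 47.1 in MSC and 2.85, 1.99 and 1.64 in TAC. The log2 fold change of Vcam1 was -2.97 (SE 0.55, limma adjusted p = 0.0913). Those of Mmp9, a matrix protease, and Bcl2l1, which blocks apoptosis, were -2.28 and -1.14, with limma adjusted p of 0.156 and 0.176. That of Traf1, a signalling adaptor, was -2.82 (limma adjusted p = 0.168), with the limit of a TAC mean below 1 given above.

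**Figure D4:**
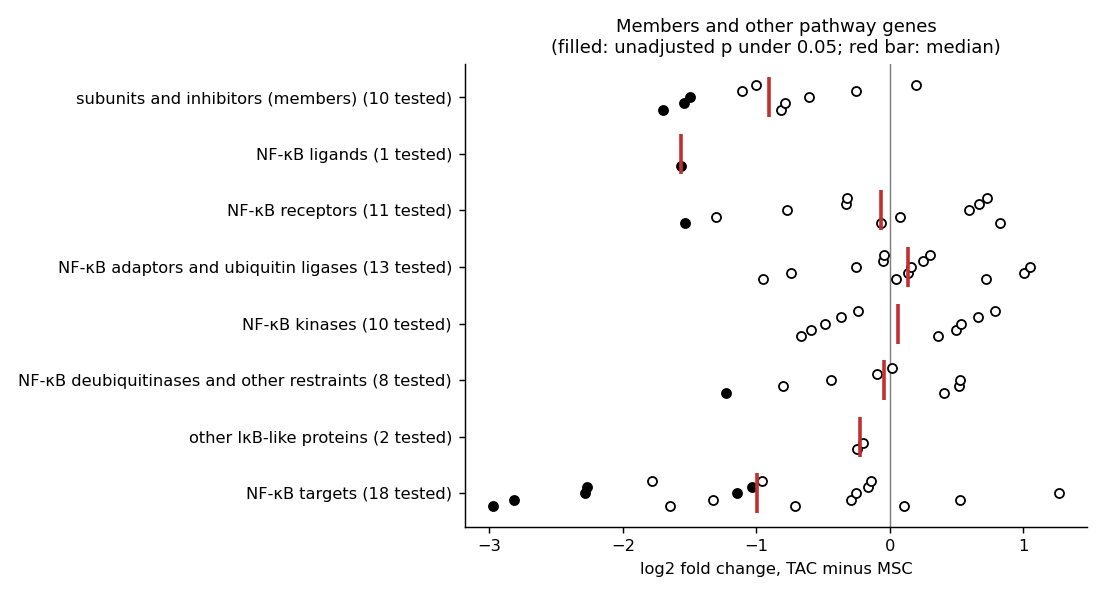
Log2 fold changes (TAC minus MSC) of the tested genes of the 7 pathway lists and of the 10 NF-κB genes, 1 point a gene (filled at an unadjusted p under 0.05), with the median of each list as a red bar. Of the targets 15 of 18, and of the 10 genes 9, lie left of 0, against 48.5% of all genes. Those 15 targets include Ccl5, Ccl2, Traf1, Il15 and Plau, which had a mean below 1 in TAC and give no support to a difference. The adaptors and kinases lie on both sides of 0.

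Several marker lists of other cell types were higher in MSC. Smooth muscle and pericyte markers summed to 738 to 1511 in MSC and 84.2 to 87.6 in TAC, and 5 of 7 (Acta2, Myh11, Tagln, Rgs5 and Notch3) passed an adjusted p of 0.05 in limma with MSC higher, against 0.383% of all genes. Endothelial markers summed to 183 to 293 in MSC and 91.0 to 104 in TAC, with 4 of 8 higher in MSC at an unadjusted p under 0.05, against 6.43% of all genes. Macrophage and other myeloid markers summed to 99.4 to 292 in MSC and 54.1 to 163 in TAC, with 4 of 11 tested not overlapping and MSC higher, against 12.2% of all genes. At an unadjusted p under 0.05, 1 of the 11 was higher in MSC, against 6.43% of all genes, and 5 were with the replicate block, against 10.9%. That 1, Ptprc, which encodes the leukocyte antigen CD45, had values of 10.4, 13.3 and 13.4 in MSC and 4.23, 5.49 and 5.09 in TAC. Of the 11, 9 had a fold change below 0, among them C1qa at -0.06, and Tyrobp (0.90) and Adgre1 (0.49) lay above it. No myeloid marker lacked reads in every library, but Adgre1 and Tyrobp had none in MSC replicate 3. Schwann cell and nerve markers summed to 22.3 to 46.2 in MSC and 6.37 to 19.3 in TAC. Odontoblast markers overlapped, with sums of 532 (replicate 3) to 5119 in MSC and 3284 to 4623 in TAC that were mostly Dspp. Over the 6 libraries all 4 had a fold change above 0 (median 0.83). The odontoblast median was -0.02 in replicates 1 and 2, where Dspp (-0.14) and Phex (-0.15) were below 0, and 1.81 in replicate 3. Red blood cell markers overlapped as well, at 37.2 to 79.01 and 56.3 to 76.3. The 10 NF-κB genes summed to 157 to 209 in MSC and 82.6 to 110 in TAC. Vascular, immune and nerve cells all use NF-κB genes, and the part of these cells in the results was not tested.

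**Figure D5:**
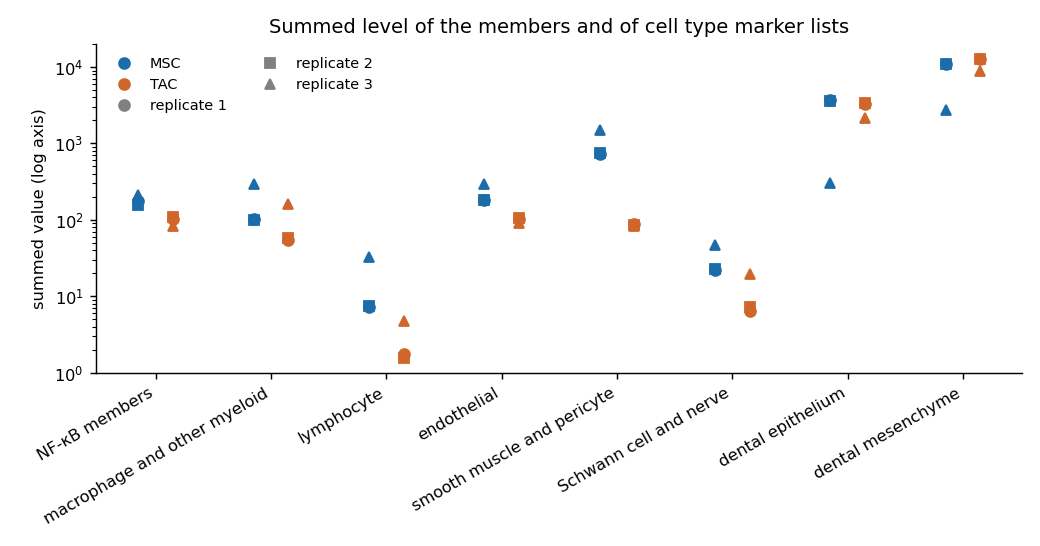
Summed deposited values of the 10 NF-κB genes and of 7 cell type marker lists in the 3 MSC and 3 TAC libraries, on a log axis, with 1 point a library. MSC lies above TAC without overlap for the NF-κB genes and for the smooth muscle, endothelial, lymphocyte and nerve lists, and the macrophage list overlaps.

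Genes of the immediate early response, which tissue handling can raise within minutes, were read as an accompanying list. Of 15 tested, 3 were higher in MSC at an unadjusted p under 0.05, against 6.43% of all genes: Dusp1 (log2 fold change -2.04), Egr1 (-1.10) and Zfp36 (-1.06). Ier2 lay higher in TAC without overlap (0.79). The list summed to 175 to 189 in MSC and 129 to 142 in TAC, with a median log2 fold change of -0.08. Its part in the NF-κB results was not tested.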

How the data were processed

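RNA of laser-captured MSC and TAC regions was sequenced in 3 samples each, as single-end reads. Per the labels and the study's methods, the authors used CASAVA 1.8.2, TopHat2 2.0.8 with mm10 and Partek. Their methods name RPKM, but the values the authors deposited behave as a signal: a read number plus 1, divided by a library factor, with gene length not divided out. Reads were estimated by dividing each value by the smallest one in that library and taking off 1. Among low values (up to 100 steps), 61.9% to 71.3% were whole within 0.01, so no count model was the main test.

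Genes were kept at a mean of 1 or more (15391 genes), and log2(value + 1) was fitted with limma 3.58.1 (R 4.3.3, variance trend), TAC minus MSC, two-sided, with Benjamini-Hochberg adjustment and a threshold of 0.05. A fold change on this scale understates that of low genes. The code was tested on simulated data. The p-values measure only the spread between these samples, which may be technical. Replicates differed by more than sampling noise and were kept apart. Samples with the same number deviated together from their group means (r of 0.48, 0.47 and 0.52), as did MSC replicate 2 with TAC replicate 1 (0.48), so the pairing reflects replicate 3 against replicates 1 and 2, and a replicate block was an alternative.

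The members and lists were chosen with earlier results of these data known. Named were all 10 members, and from each other list the genes past the adjusted threshold and up to 4 non-overlapping genes of lowest p, except that in the marker lists non-overlapping genes were mostly given as counts. Birc3, Ccl5, Ccl2, Il15, Plau, Cd83, Dspp, Bcl3, Nfkbid, Mki67, Axin2 and Gli1 were named outside that rule, after their values were seen. So were the markers Tyrobp, Adgre1, C1qa, Amelx, Enam, Phex, Col1a1, Twist1, Lhx6 and Barx1. Other normalizations, filters, pseudocounts, models and left-out libraries were tried. Counting error at low reads is not covered by the fit.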

Additional observations from a re-analysis of the deposited data

How the results depend on the processing

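Across 20 alternative settings the 10 NF-κB genes gave 195 values, of which 175 kept their direction and their side of the adjusted threshold, 3 were untested values of replicate 3 alone that moved by less than the replicate spread, 9 newly passed it, 0 lost it, 2 changed sign and 6 were untested values of replicate 3 alone that moved by more than the replicate spread. The sign changed for Nfkbia in replicate 3 alone (0.42) and for Nfkbib without MSC replicate 3 (-0.043, in a range of -0.043 to 0.43 over the left-out libraries). Of the 10 genes, the number past the adjusted threshold rose from 0 to 1 (Nfkbiz) with the library set as a batch term, where 6.56% of all genes passed with MSC higher, and to 8 in replicates 1 and 2 only (24.2%), and was 0 in every setting that left out 1 library and with the replicate block. The number at an unadjusted p under 0.05 is given with the share of all genes that passed with MSC higher. It went from 3 (6.43%) to 1 with a mean of at least 10 (7.49%, with 5 of the 10 tested), 6 with quantile normalization (7.12%), 8 with the library set term (15.4%), 9 in replicates 1 and 2 only (28.4%), 0 with replicates 1 and 2 averaged (2.14%) and 6 with limma voom (9.96%). It was 1 to 3 when 1 library was left out, with 1 (Nfkbiz) without MSC replicate 1 (4.52%). Of the other pathway genes, the number past the adjusted threshold went from 0 of 63 to 9 with the library set term (where 11.8% of all genes passed), to 26 in replicates 1 and 2 only (44.2%), and to 1 (Vcam1) without MSC replicate 3 (1.9%), for a range of 0 to 1 over the left-out libraries.

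Over all genes the number past the adjusted threshold was 65, and 43 with a pseudocount of 0.5, 114 with quantile normalization, 29 without the variance trend, 229 with the replicate block, 1814 with the library set term, 6796 in replicates 1 and 2 only, 10 with replicates 1 and 2 averaged and 23 with limma voom. With 1 library left out it ran from 0 to 292, with 0 without replicate 1 or 2 of either group, 292 without MSC replicate 3 and 36 without TAC replicate 3. Where the construction does not show it (fewer genes or samples), the cause was not tested. The replicate block changed no adjusted call among the 10 genes. The fewest estimated reads behind a value of the 10 genes were 65, for Tnfaip3 in TAC replicate 3.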
